A study of Rattus norvegicus with 352 samples.

Results

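The genes described here are 5 pairs of rat genes, each made of an enzyme gene or enzyme subunit gene (the parent) and a gene that RefSeq names as its like copy, followed over all deposited brain libraries: Prmt1 with Prmt1l1, Ldha with Ldhal1, Ppp2r5a with Ppp2r5al1, Ndufa10 with Ndufa10l1, and Fbxl18 with Fbxl18l1. The 10 genes were taken by name from a table of 38354 genes, and all 10 were among the 16683 genes tested, those with a mean of at least 1 on the log2(CPM + 1) scale. CPM is the authors' estimated count after each library was scaled to the same total, counts per 1000000, not corrected for transcript length. The pairs were chosen by their measured levels in these same libraries, so the spread and levels of the members and the relation of copy to parent are given as a description with no test. All libraries form a single group: polyA RNA of whole brain hemispheres from naive, untreated heterogeneous stock rats, an outbred stock descended from inbred founder strains in which many gene variants segregate. The labels used here give no age, sex or allele, and no control group, so the comparisons are between libraries and between genes. The table holds 97.2% of the samples named, and each library is counted as 1 rat, although no label states it.

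Copies of a gene arise when a stretch of DNA is duplicated, or when a processed messenger RNA is copied back into the genome without its introns. Such a copy can keep a transcript sequence close to that of its parent, and reads from the shared stretches then fit both genes. The parents serve different roles: Prmt1 encodes the main asymmetric arginine methyltransferase, Ldha the A subunit of lactate dehydrogenase, Ppp2r5a a B56 regulatory subunit of protein phosphatase 2A (PP2A), Ndufa10 an accessory subunit of mitochondrial complex I, and Fbxl18 an F-box protein that brings substrates to an SCF ubiquitin ligase.

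On the RefSeq assembly GRCr8 each copy lies on another chromosome than its parent and is far shorter. Prmt1 spans chromosome 1 from 104595339 to 104605552, and Prmt1l1 chromosome 14 from 91764602 to 91765863. Ldha spans chromosome 1 from 106508092 to 106517512, and Ldhal1 chromosome 8 from 38621351 to 38622975. Ppp2r5a spans chromosome 13 from 105462371 to 105506767, and Ppp2r5al1 chromosome 4 from 163918873 to 163921105. Ndufa10 spans chromosome 9 from 100454498 to 100490023, and Ndufa10l1 chromosome 6 from 65606866 to 65608299. Fbxl18 spans chromosome 12 from 16781901 to 16812728, and Fbxl18l1 chromosome 5 from 100508044 to 100510905. The parents cover 9421 to 44397 bases of genome and the copies 1262 to 2862 bases. RefSeq also names 30 pseudogenes of Ldha and 3 of Prmt1, and the table lists none of these 33 genes.

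The start regions of the copies were compared with those of the parents. RefSeq windows (GRCr8) of 250 bases before to 50 bases after a start were set side by side for the 4 pairs in which both genes have a window. In 3 pairs the windows shared runs of at least 15 bases, and in the copies these runs lay at or after the start. Runs were matched in the same order along both windows. Among those so matched, the longest wholly before the start of a copy was 6 to 8 bases, and runs out of this order were not searched. The sequences below show the run nearest the start of each copy, in capitals, with the 30 bases before it in lower case; the lower-case stretches let a reader see how far the likeness goes upstream.
Prmt1l1: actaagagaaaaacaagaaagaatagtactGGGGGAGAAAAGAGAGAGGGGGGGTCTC
Prmt1: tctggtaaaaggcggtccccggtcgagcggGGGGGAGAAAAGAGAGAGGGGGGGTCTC
Ldhal1: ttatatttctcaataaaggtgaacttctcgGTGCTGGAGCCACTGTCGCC
Ldha: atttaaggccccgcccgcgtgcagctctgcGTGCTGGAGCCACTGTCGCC
Fbxl18l1: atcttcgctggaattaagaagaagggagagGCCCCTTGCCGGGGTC
Fbxl18: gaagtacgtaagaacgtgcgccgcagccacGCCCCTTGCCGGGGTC

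The Prmt1l1 stretch lies on the minus strand of chr14:91765840-91765897 and the Prmt1 stretch on the minus strand of chr1:104604568-104604625. Their run of 28 bases starts 4 bases before the start of Prmt1l1. In the Prmt1 window the same run starts 50 bases before the start that this window was drawn around and so lies wholly before that start. A further run of 25 bases reaches to the end of the copy's window. The Ldhal1 stretch lies on the plus strand of chr8:38621326-38621375 and the Ldha stretch on the plus strand of chr1:106508062-106508111. Their 20 capital bases open the Ldha transcript, begin 5 bases into Ldhal1 and are followed by a further run of 24 bases. The Fbxl18l1 stretch lies on the minus strand of chr5:100510876-100510921 and the Fbxl18 stretch on the plus strand of chr12:16789714-16789759. Their 16 capital bases are the first part of a run of 36 bases that starts 14 bases into Fbxl18l1. In the Fbxl18 window this run starts 7 bases before the start that this window was drawn around. On either strand the capital stretches were found in 0.00598%, 0.00598% and 0.00896% of all 33469 RefSeq windows for the Prmt1, Ldha and Fbxl18 pairs, that is in 2, 2 and 3 windows. The RefSeq windows of Prmt1 and Fbxl18 belong to starts 1007 and 7850 bases downstream of those in the table. The stretches shown for these parents thus lie inside the gene spans given above, not upstream of the genes. The Ppp2r5a and Ppp2r5al1 windows shared no run longer than 9 bases, and Ndufa10l1 had no window.

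Across the whole series, library totals ran from 5418230 to 42980793 estimated counts (median 21881769), and libraries correlated with each other at a median r of 0.991 and at most 0.995. Neuronal, astrocytic, oligodendrocyte and microglial markers were above 1 CPM in every library. The pituitary hormone genes Prl and Gh1 were above 1 CPM in 7 and 6 libraries, 8 libraries in all. Without these 8 libraries, an alternative chosen after seeing the data, 6 members passed the spread call and 6 fell into separate levels, the counts also found with them.

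On the log2 scale the copies differed between libraries far more than the parents in 4 of the 5 pairs, and in the Prmt1 pair both genes did. In CPM the parent had the larger SD in each pair. Spread was measured as the SD of log2(CPM + 1) over the SD that a smooth trend of all tested genes gives at the same level. It was at least 2 times the trend in 6 of the 10 members, the 5 copies and Prmt1, against 5.23% of all tested genes. Separate levels are groups of libraries with a gap in level between them, found by a mixture of up to 3 normal curves. The same 6 members fell into separate levels, against 0.821% of all tested genes. On the log2(CPM + 1) scale none of the 5 sums of parent and copy passed either call. How many levels a copy showed depended on the setting, and the levels without scaling are given in the closing section. Prmt1l1 fell into 2 levels in place of 3 with median ratio scaling, with block means removed, with a pseudocount of 0.1 and without the renamed libraries, and Ldhal1 and Ppp2r5al1 into 2 with block means removed and with that pseudocount. Fbxl18l1 fell into 1 level with block means removed and Ndufa10l1 into 1 with that pseudocount, so 5 members were in separate levels under each of these 2 settings. Since the members were chosen with these values in view, nothing is read from the shares.

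**Figure D1:**
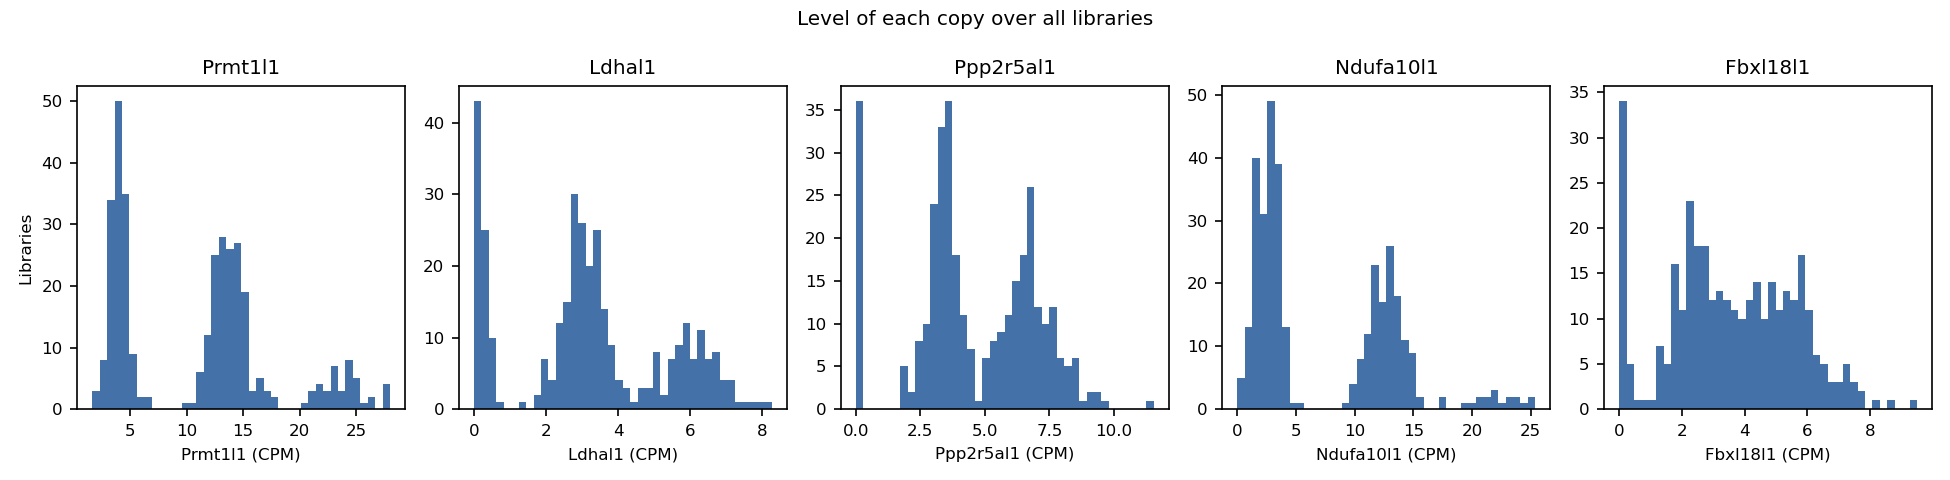
Histograms of the 5 copies, with CPM on the x axis and the number of libraries on the y axis. Prmt1l1, Ldhal1 and Ppp2r5al1 show 3 groups, Ndufa10l1 a large low group and higher groups, and Fbxl18l1 a small group near 0 beside a broad one.

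Prmt1, the methyltransferase gene, ran from 26.8 CPM through a median of 50.3 to 73.3 CPM. Prmt1l1 ran from 1.66 through 12.4 to 27.999 CPM. Their sum ran from 49.8 through 63.5 to 78.0 CPM. The range of Prmt1 was wider than that of the sum, and the range of the copy slightly narrower. The means were 52.3 ± 11.4 CPM for Prmt1, 10.9 ± 6.75 CPM for Prmt1l1 and 63.1 ± 5.56 CPM for the sum (SD over all libraries). Between the 5th and 95th percentile of libraries the fold was 2.24 for Prmt1, 7.54 for Prmt1l1 and 1.35 for the sum. Spread over the trend was 3.66, 5.52 and 1.43 times.

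Prmt1l1 stood at 4.02 ± 0.818 CPM in 41.8% of libraries, at 13.7 ± 1.45 CPM in 46.2% and at 23.9 ± 1.94 CPM in 41 libraries, or 11.99%. The steps between these levels were nearly even, 9.71 and 10.2 CPM. Prmt1 stood at 30.2 ± 1.86 CPM in 40 libraries, or 11.7%, at 47.6 ± 3.04 CPM in 46.5% and at 63.6 ± 3.40 CPM in 41.8%. Its steps were 17.4 and 15.99 CPM, larger than those of the copy. The levels mirrored each other library by library: 41.2% of libraries were low for Prmt1l1 and high for Prmt1, 45.6% were in the middle for both, and 11.7% were high for Prmt1l1 and low for Prmt1. These make 98.5% of libraries, and the other 5 libraries were 1 level off. Within a level of Prmt1l1 the relation with Prmt1 was near 0, with Pearson r of -0.01, 0.06 and -0.10 from the low to the high level.

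The sum was steadier than the parent and yet not level across the copy's range. The variance of the sum was 0.176 of the sum of the 2 variances, and 0.141 to 0.259 within the blocks of libraries with a shared start of their identifier. The fitted line of Prmt1 on Prmt1l1 had a slope of -1.59 CPM per CPM, so the sum was lower too where the copy was higher (slope -0.59). Prmt1l1 held between 2.48% and 49.1% of the estimated counts of the pair (median 20.5%). In the library of lowest share, 30 of 1195 counts fell to the copy, a 95% Wilson interval of 1.76% to 3.56%. In the library of highest share, 675 of 1375 counts did, with an interval of 46.5% to 51.7%. These intervals cover counting error only. The 2 libraries were picked for the lowest and highest share, so the distance between the intervals is not read as a test.

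Ldha, the lactate dehydrogenase gene, ran from 197.8 CPM through a median of 242.1 to 303.2 CPM. Ldhal1 ran from 0 through 3.03 to 8.27 CPM. The sum ran from 202.9 through 245.7 to 303.8 CPM, close to the range of Ldha since the copy is a small part of the pair. The means were 243.8 ± 21.5 CPM for Ldha, 3.18 ± 2.14 CPM for Ldhal1 and 246.999 ± 19.96 CPM for the sum (SD over all libraries). Spread over the trend was 1.68 times for Ldha, 4.06 times for Ldhal1 and 1.54 times for the sum.

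Ldhal1 stood at 0.217 ± 0.146 CPM in 79 libraries (23.1%), at 3.02 ± 0.539 CPM in 50.3% and at 6.06 ± 0.778 CPM in 91 libraries (26.6%). The steps of 2.80 and 3.04 CPM were nearly even, and the lowest level lay close to 0. Ldhal1 was at 0 in 4 libraries and under 3 counts in 26. Ldha fell into no separate levels. Its line against the copy was the steepest of the 5 pairs, with a slope of -7.63 CPM per CPM of Ldhal1, so the difference in the parent was several times the copy's own and the sum was lower as well (slope -6.63). The variance of the sum was 0.851 of the sum of the variances. Within levels of the copy the sign turned: r was 0.29 in the low, 0.32 in the middle and 0.08 in the high level. Ldhal1 held 0% to 3.48% of the pair (median 1.24%). The highest share came from 4963 counts of the pair (Wilson interval 3.01% to 4.03%), and in a library at 0 none of 6426 counts fell to the copy, which allows a share of up to 0.0467% by the floor of 3 counts, a bound for counting error that is used for each copy at 0.

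Ppp2r5a, the phosphatase subunit gene, ran from 46.7 CPM through a median of 56.2 to 71.7 CPM. Ppp2r5al1 ran from 0 through 3.93 to 11.5 CPM. Their sum ran from 51.8 through 60.8 to 74.8 CPM. The means were 56.5 ± 4.18 CPM, 4.55 ± 2.39 CPM and 61.03 ± 3.80 CPM for parent, copy and sum (SD over all libraries). The parent and the sum lay near the trend, at 1.15 and 0.986 times, and the copy at 4.09 times.

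Ppp2r5al1 stood at 0.0406 ± 0.0599 CPM in 36 libraries (10.5%), at 3.38 ± 0.562 CPM in 45.3% and at 6.83 ± 1.06 CPM in 44.2%. The steps were 3.34 and 3.45 CPM. Of the libraries, 23 were at 0 and 31 held under 3 counts, so the lowest level is nearly free of counts for this copy. The slope of Ppp2r5a on the copy was -0.77 CPM per CPM, and the slope of the sum was 0.23. The variance of the sum was 0.621 of the sum of the variances (0.413 to 0.782 within blocks). Within levels r was 0.08, 0.10 and 0.05 from the low to the high level, near 0 in each. The copy held 0% to 18.6% of the pair (median 6.52%). The highest share came from 1255 counts of the pair (Wilson interval 16.6% to 20.9%), and in a library at 0 none of 1725 counts fell to the copy, which by the floor of 3 counts allows up to 0.174%.

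Ndufa10, the complex I gene, ran from 106.4 CPM through a median of 126.4 to 149.5 CPM. Ndufa10l1 ran from 0 through 3.62 to 25.4 CPM. The sum ran from 110.7 through 134.8 to 156.4 CPM. The means were 126.6 ± 8.36 CPM, 7.45 ± 6.08 CPM and 134.02 ± 8.20 CPM for parent, copy and sum (SD over all libraries). Ndufa10l1 had the widest spread of the 10 members on the log2 scale, 5.71 times the trend, beside 1.19 times for Ndufa10 and 1.12 times for the sum.

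On the log2 scale Ndufa10l1 stood at 2.52 ± 0.976 CPM in 56.1% of libraries and at 13.8 ± 3.42 CPM in 43.9%. On the CPM scale the upper group parted into 38.9% of libraries at 12.7 ± 1.46 CPM and 17 libraries at 22.3 ± 1.82 CPM. The number of levels of this copy thus rests on the scale. It was at 0 in 2 libraries. The slope of Ndufa10 on Ndufa10l1 was -0.53 CPM per CPM, and that of the sum 0.47. The variance of the sum was 0.630 of the sum of the variances, with a wide range of 0.348 to 0.911 within blocks. Within the 2 levels r was -0.11 and -0.07. The copy held 0% to 17.3% of the pair (median 2.77%). The highest share was 372 of 2150 counts (Wilson interval 15.8% to 18.96%), and in a library at 0 none of 2368 counts fell to the copy, which by the floor of 3 counts allows up to 0.127%.

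Fbxl18, the F-box gene, ran from 11.98 CPM through a median of 20.9 to 28.98 CPM. Fbxl18l1 ran from 0 through 3.46 to 9.49 CPM. Their sum ran from 17.9 through 24.7 to 29.7 CPM. The means were 21.05 ± 2.73 CPM, 3.55 ± 2.03 CPM and 24.6 ± 2.01 CPM for parent, copy and sum (SD over all libraries), so the sum had the smallest SD of the 3 values. Spread over the trend was 1.501 times for Fbxl18, 3.71 times for Fbxl18l1 and 0.992 times for the sum.

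On the log2 scale Fbxl18l1 stood at 0.116 ± 0.185 CPM in 41 libraries (11.99%) and at 4.02 ± 1.69 CPM in the other 88.01%. On the CPM scale it fell into 1 level. It was at 0 in 22 libraries and under 3 counts in 25. The slope of Fbxl18 on the copy was -0.91 CPM per CPM, and the slope of the sum was only 0.09. The variance of the sum was 0.348 of the sum of the variances (0.196 to 0.421 within blocks). Inside its large level Fbxl18l1 had r of -0.58 with its parent, and in the low level r was -0.23 (n = 41); the difference from the other pairs was not tested. The copy held 0% to 34.9% of the pair (median 13.7%). The highest share came from 502 counts of the pair (Wilson interval 30.8% to 39.1%), and in a library at 0 none of 569 counts fell to the copy, which by the floor of 3 counts allows up to 0.527%.

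**Figure D2:**
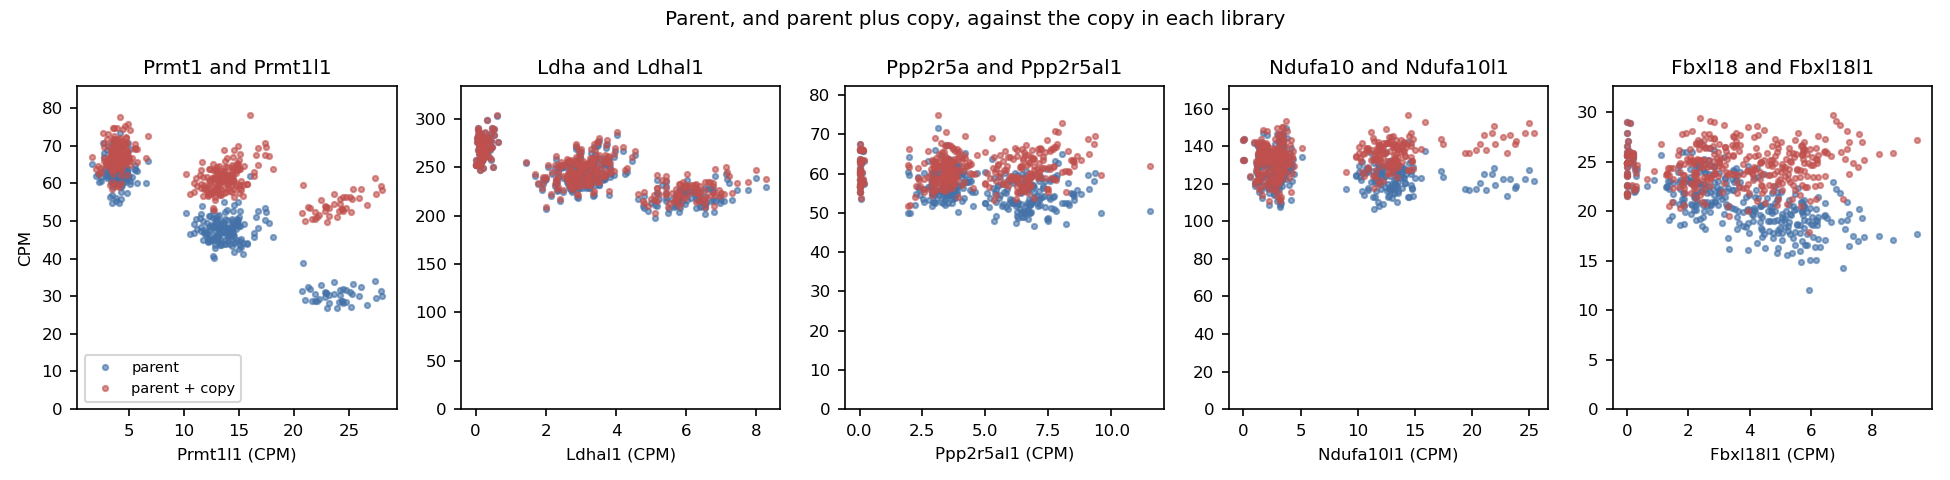
Each point is 1 library, with the copy's CPM on the x axis and, on the y axis, the parent's CPM (blue) or the CPM of parent plus copy (red), for the 5 pairs. The parent is lower where the copy is higher in each pair, and the red points slope down for Prmt1 and Ldha (slopes -0.59 and -6.63) and lie nearly flat for Fbxl18 (slope 0.09).

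**Figure D3:**
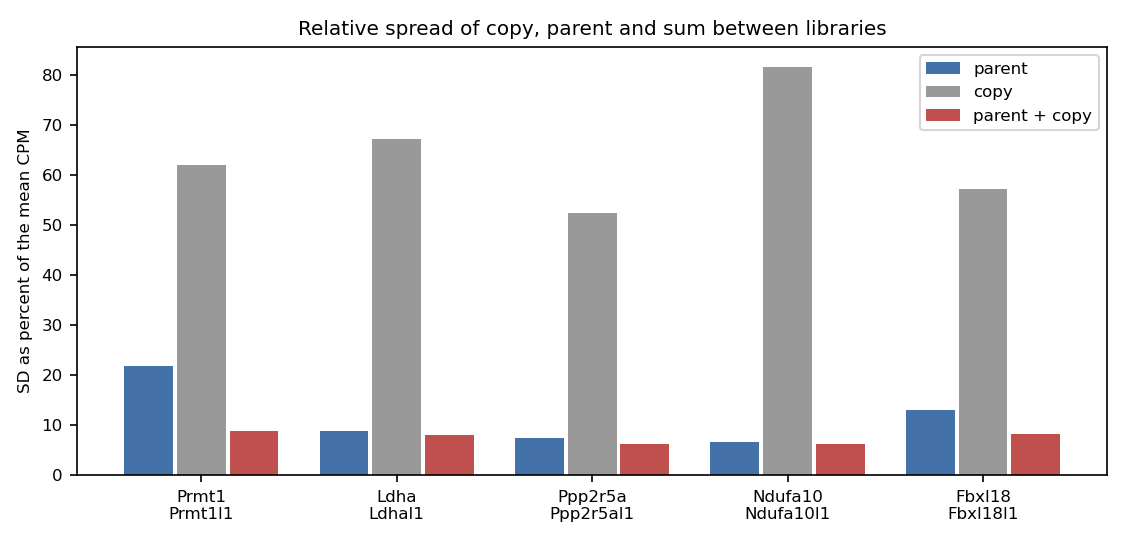
Bars give the SD between all libraries as a percent of the mean CPM, for the parent (blue), the copy (grey) and their sum (red) of each pair; the y axis starts at 0. The copies are the tallest bars in each pair, and the bar of the sum is shorter than that of the parent, most of all for Prmt1, at 8.81% for the sum and 21.9% for the parent.

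How any reads common to a copy and its parent were divided between them by the authors' quantification can bear on the values of both genes above. How alike the transcripts of a copy and its parent are was not measured here, so the extent of such reads and their division are not known. The values of copy and parent as single genes are therefore uncertain, and the part of this division in the levels was not tested.

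The genes most related to a copy lay around its parent and not around the copy itself, with 1 exception among the genes of Fbxl18l1. Pearson r of log2(CPM + 1) over all libraries was taken between each member and the 16673 other tested genes, and genes with an absolute r of at least 0.3 were counted within 5 Mb of the parent and within 5 Mb of the copy. The r of 0.3 and the 5 Mb were chosen after seeing the data. All r here share the libraries and their depth, span the levels of the copies, and are a description with no test.

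For Prmt1l1, 20 genes reached this r in the whole genome (0.12% of those compared), and all 20 lay around Prmt1, 13.9% of the tested genes there. None of the 23 tested genes around Prmt1l1 did, where the highest absolute r was 0.16. The 3 genes most like Prmt1l1 were Aldh16a1 (r = 0.73), of the aldehyde dehydrogenase family, Fuz (r = -0.67), a planar cell polarity gene needed for cilia, and Pih1d1 (r = -0.64), a gene of the R2TP chaperone complex. They lie 0.171, 0.0898 and 0.169 Mb from the start of Prmt1. The same 3 genes were the most like Prmt1, with the opposite sign: r was -0.70, 0.69 and 0.68. For Prmt1 itself 19 genes reached the threshold (0.114%), 18 of them around Prmt1 and 0 around the copy. Of the genes on either side of Prmt1, Cpt1c, a brain carnitine palmitoyltransferase 1 gene, had r of 0.36 with Prmt1l1 and -0.41 with Prmt1, while Irf3, an interferon regulatory factor gene that starts slightly nearer, had r of 0.08 and -0.15. The genes on either side of Prmt1l1, Cobl and Vstm2a, had r of -0.05 and -0.08 with it.

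For Ldhal1, 12 genes reached the threshold (0.072%), all 12 among the 140 around Ldha and 0 among the 39 around Ldhal1. The genes most like it were Prmt1 (r = 0.44), Etfb (r = -0.44), which encodes a subunit of the electron transfer flavoprotein, and Siglec5 (r = 0.43), a sialic acid binding receptor gene. Prmt1 is a member and not counted among the 12. Etfb and Siglec5 lie 3.52 and 3.603 Mb from the start of Ldha. Prmt1 and Ldha start 1.90 Mb apart, so the genes around them are largely the same. Etfb and Siglec5 also reached the threshold with Prmt1l1, with the opposite sign (r = 0.32 and -0.54). For Ldha 20 genes reached the threshold (0.12%), 10 of them around Ldha and 0 around Ldhal1. Its most like genes were Etfb (r = 0.49), Isg20l1 (r = -0.39) and Prmt1l1 (r = 0.38). Beside Ldha, LOC102552634 had r of 0.36 with Ldhal1 and -0.35 with Ldha, and Tsg101 had r of 0.05 and 0.21. The genes on either side of Ldhal1, Barx2 and Arhgap32, had r of -0.02 and -0.15 with it.

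For Ppp2r5al1, 13 genes reached the threshold (0.078%), all 13 among the 55 around Ppp2r5a and 0 among the 98 around the copy. Around the copy the highest absolute r was 0.14. The genes most like it were Tatdn3 (r = 0.63), Gpatch2 (r = -0.60) and Hhat (r = 0.45), which encodes the acyltransferase that adds palmitate to Hedgehog ligands; they lie 0.327, 4.19 and 1.31 Mb from the start of Ppp2r5a. Beside Ppp2r5a, Dtl had r of 0.38 with Ppp2r5al1 and -0.04 with Ppp2r5a, and the nearer LOC134481545 had r of -0.03 and 0.07. The genes beside the copy, LOC100912974 and Clec2gl1, had r of -0.03 and 0.01 with it. For Ppp2r5a itself 810 genes reached the threshold (4.86%), of which 3 lay around Ppp2r5a and 3 around Ppp2r5al1, with Foxo3 (r = -0.51), Rere (r = -0.50) and Fbxo21 (r = -0.50) leading.

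For Ndufa10l1, 2 genes reached the threshold (0.012%), Col6a3 (r = 0.40), a collagen VI gene, and Ube2f (r = 0.30), a NEDD8-conjugating enzyme gene. They lie 1.60 and 1.20 Mb from the start of Ndufa10. The next most like gene, Gpc1 (r = 0.24), a glypican gene, lies 0.354 Mb from it. None of the 14 tested genes around Ndufa10l1 reached the threshold. The genes beside Ndufa10, Hdac4 and Cops9, had r of 0.03 and 0.12 with the copy and -0.16 and 0.01 with Ndufa10, and those beside the copy, Lrrn3 and LOC120103526, had r of 0.06 and -0.02 with the copy. For Ndufa10, 1.42% of the genes reached the threshold, 1 of them around Ndufa10 and 0 around the copy, led by Atp5f1a (r = 0.41), which encodes the alpha subunit of ATP synthase, C14h4orf50 (r = -0.40) and Kmt2d (r = -0.40).

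For Fbxl18l1, 3 genes reached the threshold (0.018%), 2 of them among the 120 around Fbxl18 and 0 among the 17 around the copy. Tecpr1 (r = 0.54), an autophagy gene, and Rsph10b (r = -0.39), a radial spoke head gene, lie 1.28 and 0.993 Mb from the start of Fbxl18. The other, Pdik1l (r = -0.42), a kinase gene, lies on the copy's own chromosome 5 at 51.3 Mb from it and itself fell into 2 separate levels. For Fbxl18, 508 genes reached the threshold (3.05%), 9 of them around Fbxl18 and 1 around the copy, led by Bsn (r = 0.47), Rps24 (r = -0.46) and Lmtk2 (r = 0.45). The nearest tested gene to Fbxl18, Actb, had r of 0.16 with Fbxl18 and -0.10 with Fbxl18l1, and LOC108352424 on the other side had r of -0.06 and 0.04. Beside the copy, Lurap1l and Mpdz had r of 0.01 and -0.02 with it.

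Each of the genes called around a parent had the opposite sign with the parent: 20 of 20 for Prmt1l1, 12 of 12 for Ldhal1, 13 of 13 for Ppp2r5al1, 2 of 2 for Ndufa10l1 and 2 of 2 for Fbxl18l1. Copy and parent are themselves related, so these signs are not independent of the pairs' choice. The genes counted for Prmt1l1 and for Ldhal1 overlap, so the counts of those pairs are not independent of each other. Of the genes called, 10 had a positive and 10 a negative r with Prmt1l1, 6 and 6 with Ldhal1, 6 and 7 with Ppp2r5al1, 2 and 0 with Ndufa10l1, and 1 and 1 with Fbxl18l1. After the first 10 principal components of all tested genes were removed, an alternative added after seeing the data, the copies' counts around the parents were 24, 15, 16, 3 and 4 in the order of the pairs above, and those around the copies were 0 in all 5. The parents' own counts over all genes compared were then 24, 13, 7, 3 and 3. Of these, 24, 13, 6, 3 and 2 lay around the parent and 0 around the copy. The many genes first related to Ppp2r5a, Ndufa10 and Fbxl18 were thus mostly lost.

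**Figure D4:**
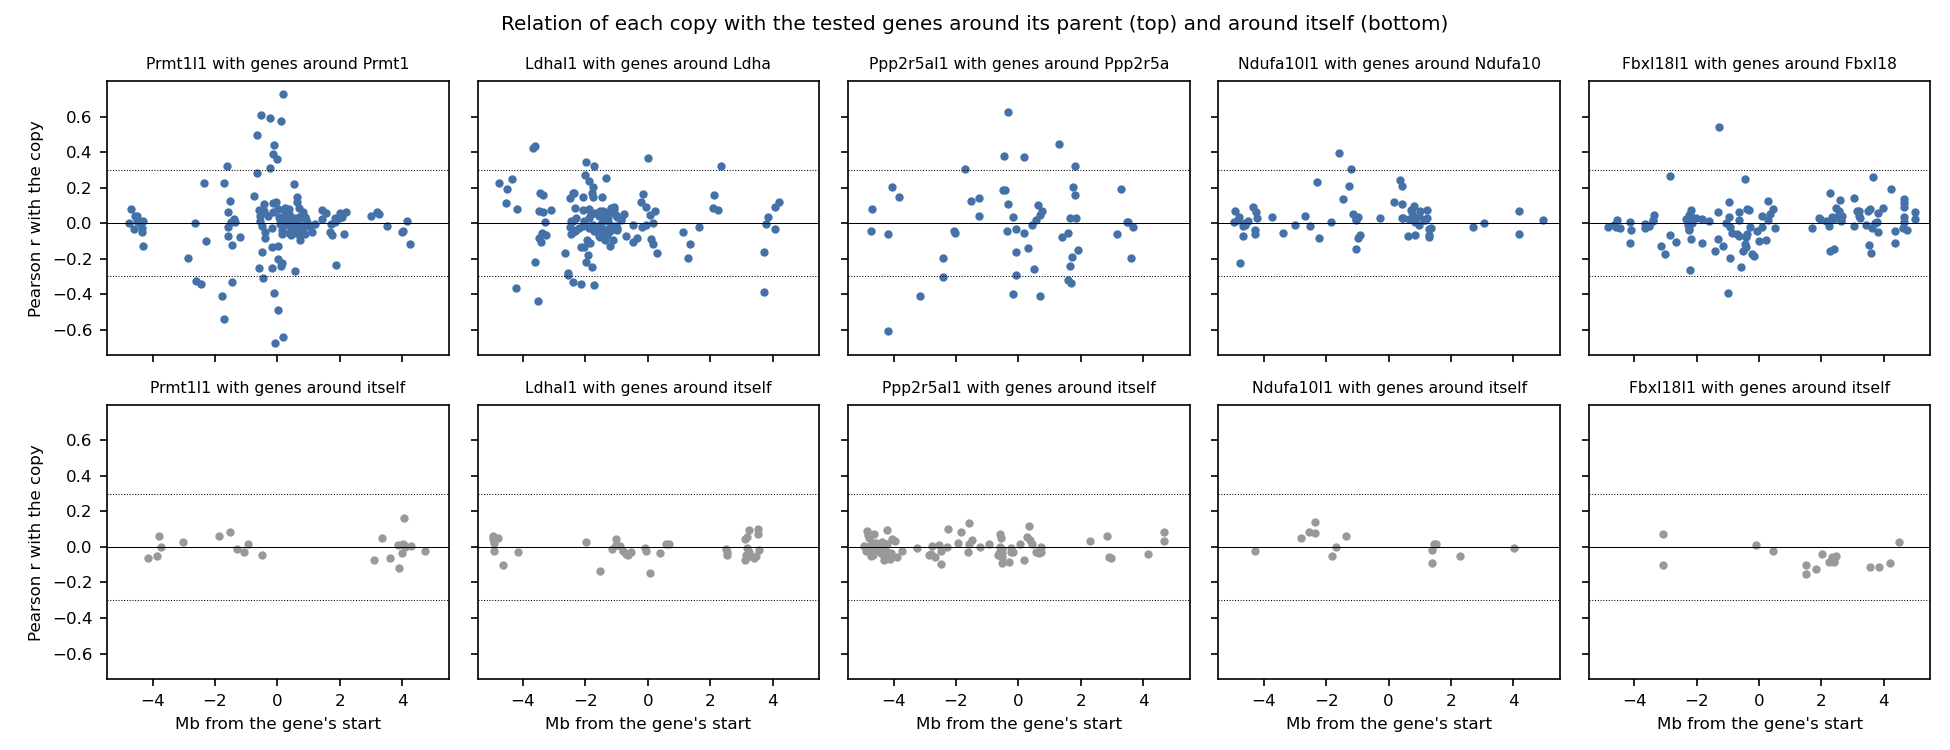
Each point is 1 tested gene, with its distance in Mb from the start of the parent (top row) or of the copy (bottom row) on the x axis and its Pearson r with the copy over all libraries on the y axis; dotted lines mark r of 0.3 and -0.3. Points pass the dotted lines in every top panel (20, 12, 13, 2 and 2 genes) and in no bottom panel.

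Members of different pairs were little related, apart from the pairs of Prmt1 and Ldha. Over the 36 combinations of members of different pairs that leave out those of the Prmt1 pair with those of the Ldha pair, r ran from -0.20 to 0.10. Prmt1 and Ldha start 1.90 Mb apart on chromosome 1, while their copies lie on chromosomes 14 and 8. Prmt1l1 and Ldhal1 had r of -0.41, and the other 9 combinations of copies ran from -0.09 to 0.04. By levels, of the libraries low for Prmt1l1, 12 were low, 66 middle and 65 high for Ldhal1. Of the 41 libraries high for Prmt1l1, 26 were low, 12 middle and 3 high for Ldhal1. These joint counts were chosen after seeing the data.

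The identifier blocks, libraries whose identifiers share their first 6 characters, served as a check for a batch, and the labels do not say what the identifiers stand for. By limma's moderated F-test over 7 blocks that hold 97.95% of the libraries, 0 of the 10 members differed between blocks at an adjusted p under 0.05, against 8.21% of all tested genes. At an unadjusted p under 0.05 the count was also 0 of 10, and the share of all tested genes at that threshold is not given here. Adjusted p ran from 0.254 for Ppp2r5a to 0.652 for Ldha. Of the sums 0 of 5 passed and 1 of 5 was under 0.05 unadjusted, that of Fbxl18 and Fbxl18l1 (limma, adjusted p = 0.0666). Library total was set against the copy's share of its pair within the levels as well: 0 of 13 relations passed an adjusted p of 0.05 by permutation test, for Pearson's r or for Spearman's rho. The highest absolute r of these was 0.20 (Ppp2r5al1, lowest level, n = 36).

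The other genes of each parent's pathway lay mostly near or under the trend. Of 10 genes of the arginine methyltransferase family and its methylosome partners, 1 was at least 2 times the trend, a call that 5.23% of all tested genes met, Prmt9 at 2.74 times (38.5 ± 7.503 CPM), followed by Prmt2 at 1.27 times; the list's median was 0.792. Of 21 tested glycolysis and lactate genes of 22 listed, 1 was, the enolase gene Eno1 at 2.28 times (530 ± 59.03 CPM), followed by the aldolase gene Aldoc at 1.67 times, with a median of 0.942. Of 21 PP2A genes 0 were, the highest being the regulatory subunit genes Ppp2r3a at 1.16 and Strn4 at 1.01 times, with a median of 0.812. Of 35 other complex I subunit genes 1 was, Ndufb4 at 3.58 times (49.8 ± 12.1 CPM), followed by Ndufa2 at 1.68 times, with a median of 1.02. Of 22 SCF and F-box leucine-rich genes 0 were, the highest being Fbxl19 at 1.27 and Fbxl16 at 1.22 times, with a median of 0.887. The median over all tested genes was 0.987. None of these list genes fell into separate levels by the mixture rule. Between identifier blocks 0, 3, 4, 2 and 2 genes of the lists differed by limma at an adjusted p under 0.05, in the same order, beside 8.21% of all tested genes.

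The members were set against the other genes of their pathway as well. The score of a list is the mean z value of its genes in a library, and it was set against each parent, copy and sum, within levels where a gene had them. Of 25 relations, 11 passed an adjusted p of 0.05 by two-sided permutation test of Pearson's r, and 9 by Spearman's rho. The weakest that passed over all libraries had an absolute r of 0.160. Among the tested genes outside the members and the list, an absolute r of that size or more was reached by 30.2% with the methyltransferase score, 61.4% with the glycolysis score, 41.6% with the PP2A score, 49.7% with the complex I score and 53.2% with the SCF score. Relations of this size were thus common in these libraries, and the members' counts are not read as a result about them. The shares of all tested genes at the larger r described below are not given here, so those r are not read as particular to the members either. With block means removed 8 relations passed: those of Ppp2r5al1 and Ldhal1 no longer did, in levels that had then changed, nor did that of the Fbxl18 sum (r = -0.12, permutation adjusted p = 0.0534). Differences between sums, parents and copies were not tested.

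The sum of Prmt1 and Prmt1l1 had r of 0.34 and rho of 0.31 with the methyltransferase score (permutation test, p = 1e-05 for each, the smallest that 100000 permutations can give, adjusted p = 3.57e-05), r of 0.32 without the 2 libraries in which the sum lay farthest from its median, and r of 0.03 to 0.65 within blocks. Prmt1 itself passed in its middle level (r = 0.34, rho = 0.40) and its high level (r = 0.49, rho = 0.46), each with a permutation adjusted p of 3.57e-05. In its low level r was 0.31 (n = 40, permutation test, adjusted p = 0.0822). Prmt1l1 passed in none of its 3 levels, with r of -0.02, 0.10 and 0.32.

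The sum of the Ppp2r5a pair had r of 0.37 and rho of 0.32 with the PP2A score (permutation adjusted p = 3.57e-05 for each), 0.38 without 2 libraries and -0.00 to 0.62 within blocks. Ppp2r5a alone had r of 0.31 and rho of 0.30, with the same adjusted p. Ppp2r5al1 passed in its high level by r (0.26, permutation adjusted p = 0.00363) and missed the threshold by rho (0.18, adjusted p = 0.0558). Under median ratio scaling Ppp2r5al1 no longer passed in that level (r = 0.09, permutation adjusted p = 0.355). The sum of the Ndufa10 pair had r of 0.37 and rho of 0.33 with the complex I score (permutation adjusted p = 3.57e-05 for each), 0.36 without 2 libraries and 0.15 to 0.60 within blocks. Ndufa10 alone had r of 0.34 and rho of 0.29, and Ndufa10l1 had r of 0.06 and 0.11 in its 2 levels. Under median ratio scaling Ndufa10l1 passed in its upper level (r = 0.19, permutation adjusted p = 0.0364).

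The Fbxl18 pair ran the other way: its sum had r of -0.17 and rho of -0.15 with the SCF score (permutation adjusted p = 0.00472 and 0.0139), -0.16 without 2 libraries, and -0.72 to 0.51 within blocks, so the sign was not the same in every block. With median ratio scaling the sum missed the threshold (r = -0.06, permutation adjusted p = 0.355), while Fbxl18 alone passed (r = -0.14, permutation adjusted p = 0.0227). Fbxl18 alone had r of -0.16 and rho of -0.16 (permutation adjusted p = 0.00733 and 0.011). Ldha and its sum missed the threshold with the glycolysis score (r = 0.09 and 0.11, permutation adjusted p = 0.154 and 0.0787). With median ratio scaling both passed (r = 0.18 and 0.20, permutation adjusted p = 0.00301 and 0.00066). Without the 5% of libraries with fewest genes above 0 the sum passed (permutation adjusted p = 0.033) and Ldha did not (0.0711). With a pseudocount of 0.1, with block means removed and without the renamed libraries both missed it. Ldhal1 passed in its middle level by r alone (0.17, permutation adjusted p = 0.0495; rho = 0.17, adjusted p = 0.0558).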

How the data were processed

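RNA was extracted from frozen hemispheres with TRIzol, enriched for polyA and made into directional libraries, per the labels' protocols. The deposited values are log2 of the estimated count plus 1 per gene, quantified by kallisto as the submitters' processing notes name it; version, index and settings: not given in the sources used here. Library totals differ in the deposited table, so it holds no depth scaling. The labels name 352 samples; 342 libraries were used, which is the n of every mean ± SD over all libraries and of every r not given by level, and 10 were not analysed here; 14 libraries in the table were renamed by the submitters to correct a mix-up, per the labels. A p-value here reflects the spread among libraries, which may be partly technical.

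Values were turned back into estimated counts, scaled to 1000000 per library and tested as log2(CPM + 1) where the mean was at least 1. Spread used a lowess trend of SD on mean level. Levels came from mixtures of 1 to 3 normal curves sharing an SD: a drop in the Bayesian information criterion of over 10 was asked for, neighbouring means to lie 4 SD apart and each level to have a fitted weight of 5%. The 7 blocks of at least 8 libraries (335 libraries) were compared with limma 3.58.1 (R 4.3.3) with Benjamini-Hochberg adjustment; Python 3.11.15, scipy 1.17.1 and statsmodels 0.14.6 did the rest. The procedures were tested on simulated normal values with no lower bound, so those runs do not bear on the lowest levels of the copies. Coordinates and sequences come from RefSeq on GRCr8.

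The members and lists were chosen with earlier results of these data known. Besides the members, the text names the 2 genes of widest spread in each list, the 3 genes of largest absolute r with each member, and the nearest tested genes on either side. Alternatives were a pseudocount of 0.1, other scaling, no scaling, other level minimums, removal of block means, mixtures on the CPM scale or with means 3 SD apart, and subsets of libraries.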

Additional observations from a re-analysis of the deposited data

How the results depend on the processing

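On the values as deposited, with no scaling, the variance of the sum over the sum of variances was 0.702 for the Prmt1 pair, 1.01 for Ldha, 1.08 for Ppp2r5a, 1.09 for Ndufa10 and 0.994 for Fbxl18, so it passed 1 and turned direction for Ldha, Ppp2r5a and Ndufa10. In that setting 3 members differed between identifier blocks by limma and 21 family score relations passed. The shares of all tested genes without scaling are not given here, so neither count is read as a result about the members. Prmt1 then stood at 1.31 times the trend and in 1 level, Ndufa10l1 in 1 level, and Ldha and Ndufa10 in 2 each. The sums of the Ldha and Ndufa10 pairs also fell into 2 levels each, and Prmt1l1, Ldhal1 and Ppp2r5al1 into 2 in place of 3. The cause was not tested. With a level minimum of 3, 2 members passed the spread call and 2 fell into separate levels, since fewer members were tested. The other 51 planned values that answer a comparison stayed within their spread between blocks or, for counts, within 1.5 times. The relations behind a count could still change. With median ratio scaling 12 family score relations passed, those of Ldha, its sum and the upper level of Ndufa10l1 among them. Those of the Fbxl18 sum and of the high level of Ppp2r5al1 then did not. Apart from the unscaled values, the variance ratio of the pairs ran from 0.174 to 0.181 (Prmt1), 0.849 to 0.854 (Ldha), 0.596 to 0.635 (Ppp2r5a), 0.617 to 0.658 (Ndufa10) and 0.335 to 0.376 (Fbxl18). No paired analysis was possible because the labels give a single group. Copies under 3 counts in a library cannot be told from 0 at this depth, which limits the lowest levels of Ldhal1, Ppp2r5al1 and Fbxl18l1.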
